A study of Homo sapiens with 6 samples.

Results

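The keratin gene family was followed in AC16 cells treated with doxorubicin. Its members were the protein-coding genes whose symbol is KRT, a number and an optional letter, with the keratin-associated KRTAP genes left out. The table of 58299 genes held 55 of them, 29 type I and 26 type II, and the rule used no measured value. The study has 6 samples of AC16, a human line made by fusing adult ventricular cardiomyocytes with a fibroblast line. Of these, 3 were treated for 48 h with the vehicle (0.1% DMSO, titled Control) and 3 for 48 h with 100 nM doxorubicin, an anthracycline that poisons type II topoisomerases. All samples had the same culture medium and no other agent or genetic change is labelled. The series title concerns NRF2, a regulator of antioxidant genes, and its part in doxorubicin toxicity. Whether the replicates are separate cultures is not labelled; p-values therefore describe the spread among these 6 libraries, part of which may be technical.

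Keratins are the intermediate filament proteins of epithelial cells. A filament is built from dimers of 1 type I (acidic) and 1 type II (basic) chain, so the genes of both types are usually expressed in pairs, such as KRT18 with KRT8 in simple epithelia and KRT14 with KRT5 in the basal layer of skin. Type I genes lie in a cluster on chromosome 17 and type II genes in a cluster on chromosome 12, where KRT18, a type I gene, sits beside KRT8. Heart muscle cells and fibroblasts build their filaments mainly from desmin and vimentin.

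Total counts were 17252862 to 19571731 per library. The labelled cell type was checked first. Of 12 cardiomyocyte markers, 0 passed the expression filter, and their summed level was 0.391 to 1.33 CPM (counts scaled to library size) in DMSO and 1.34 to 2.10 CPM in doxorubicin. The troponin gene TNNT2 had 2, 0 and 2 counts in DMSO and 1, 0 and 2 in doxorubicin, and the myosin genes MYH6 and MYH7 had 0 counts in DMSO. The 10 fibroblast markers summed to 13920 to 16420 CPM in DMSO and 4458 to 6937 CPM in doxorubicin. The defining cardiomyocyte markers were therefore at or near 0 in these libraries. The libraries are bulk RNA, so a change in the number of cells that express a gene and a change in the RNA per cell cannot be told apart.

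Most keratin genes with enough counts to test were higher after doxorubicin, led by KRT17, KRT9, KRT7 and KRT14. Of the 55 members, 15 passed the expression filter. Of those 15, 11 rose, 1 fell (KRT80) and 3 did not pass (KRT10, KRT33B and KRT81), with edgeR and a threshold of 0.05 on the adjusted p. Over all 15358 tested genes, 32.7% were called higher and 32.0% lower, together 64.7%. The median log2 fold change of the 15 was 1.25, against -0.0013 over all tested genes. Called higher with a fitted fold change above 2 were 8 of the 15, against 14.2% of all tested genes. Above 4-fold there were 4, against 6.21%. KRT9, KRT17, KRT79 and KRT86 passed the filter only through the doxorubicin libraries, where they are high. The filter thus favoured a rise in these genes, and their calls are no independent support. Among the other 11, 7 rose and 1 fell, with a median of 0.78, and 4 of the 7 rose above 2-fold and 2 above 4-fold. The 3 values of doxorubicin lay wholly above those of DMSO in 12 of the 15 members, against 34.8% of tested genes, and wholly below in 1, against 34.3%. Without the 4 genes that passed only through doxorubicin, they lay wholly above in 8 of 11 and wholly below in 1.

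**Figure D1:**
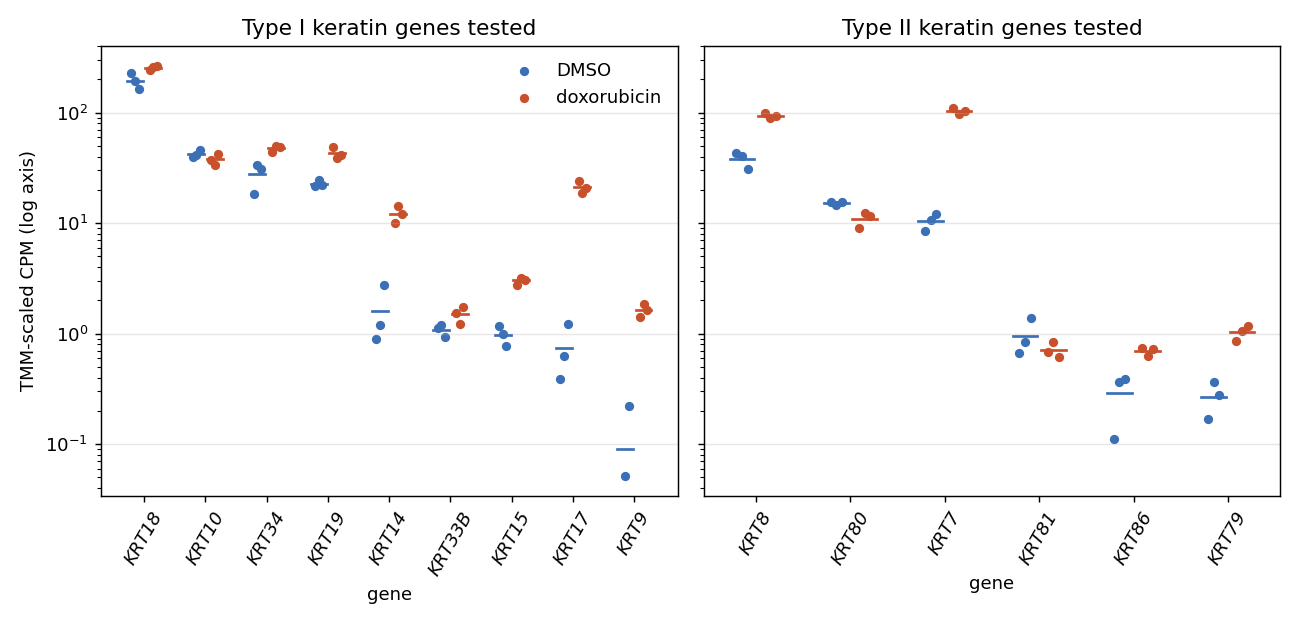
TMM-scaled CPM on a log axis for the 15 keratin genes that passed the expression filter, type I on the left and type II on the right; points are the 3 libraries of each treatment and lines their means. KRT7, KRT14 and KRT17 show the widest gaps between treatments among genes above 10 CPM in doxorubicin; the DMSO library in which KRT9 had 0 counts cannot be drawn on this axis.

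Keratins of simple, single-layered epithelia accounted for most keratin counts in both treatments. All 5 genes of this group had counts, 4 passed the filter, and all 4 rose, where 32.7% of all tested genes did. KRT7 (chr12:52232520-52252186, GRCh38), the type II keratin of ducts and glands, was at 8.49, 10.6 and 12.2 CPM in DMSO and at 111, 97.8 and 103 CPM in doxorubicin. Every doxorubicin library was thus far above every DMSO library. KRT7 rose 9.94-fold (log2 fold change 3.31 ± 0.11 SE, adjusted p = 5.4e-13, edgeR). Its antisense neighbour KRT7-AS, which shares 6.89% of the exon bases of KRT7, had 0, 1 and 0 counts in DMSO and 9, 18 and 9 in doxorubicin. Unstranded libraries cannot separate the 2 genes in that stretch, but the 37 counts of KRT7-AS compare with 6211 of KRT7.

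KRT8 (chr12:52897187-52949954), the type II keratin found in nearly all simple epithelia, was at 43.5, 40.2 and 30.9 CPM in DMSO and 98.6, 89.5 and 93.1 CPM in doxorubicin. It rose 2.46-fold, from 38.2 ± 6.53 to 93.8 ± 4.60 CPM (SD, n = 3; adjusted p = 1.5e-07, edgeR). Its partner KRT18 (chr12:52948871-52952901) was at 228, 192 and 163 CPM in DMSO and 242, 259 and 262 CPM in doxorubicin. The groups did not overlap, but the gap was narrow: means were 194 ± 32.3 and 254 ± 10.9 CPM, a rise of 1.31-fold (log2 0.39 ± 0.10 SE; edgeR, adjusted p = 0.0051). The KRT8 and KRT18 gene models overlap on opposite strands over 525 exon bases, 16.3% of those of KRT18 and 7.63% of those of KRT8. No source used here says how reads in that stretch were assigned. KRT19 (chr17:41523617-41528308), a type I keratin that lacks a tail domain, was at 21.6, 24.8 and 22.0 CPM in DMSO and 48.8, 39.2 and 41.1 CPM in doxorubicin. It rose 1.89-fold (log2 fold change 0.92 ± 0.10 SE, adjusted p = 4.2e-07, edgeR). KRT20, the keratin of intestinal epithelium, had 0 counts in DMSO and 1, 0 and 1 in doxorubicin.

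Of the keratins of the basal layer of stratified epithelia and of wounded skin, KRT14, KRT15 and KRT17 rose, and KRT17 had the highest fold change of the 15 tested members. KRT17 (chr17:41619437-41624842), a type I keratin switched on in wounded epidermis, had 7, 12 and 22 counts in DMSO and 420, 354 and 374 in doxorubicin. Mean levels were 0.744 ± 0.425 and 21.2 ± 2.60 CPM, a rise of 28.2-fold (log2 4.82 ± 0.23 SE; edgeR, adjusted p = 6.0e-11). KRT14 (chr17:41582279-41586921), the type I keratin of basal keratinocytes, had 16, 23 and 50 counts in DMSO and 176, 269 and 218 in doxorubicin. In DMSO the third library was the highest for both genes, and it still lay below every doxorubicin library. KRT14 averaged 1.62 ± 1.00 and 12.1 ± 2.10 CPM, a rise of 7.50-fold (log2 2.91 ± 0.30 SE; edgeR, adjusted p = 1.2e-05). Without DMSO replicate 3, where KRT14 was highest of the DMSO libraries, the log2 fold change was 3.52, or 11.5-fold. KRT15 (chr17:41513743-41522529), another basal type I keratin, had 21, 19 and 14 counts in DMSO and 49, 61 and 55 in doxorubicin, and rose 3.08-fold (adjusted p = 2.6e-05, edgeR). The type II partners of these genes stayed near 0. KRT5, the partner of KRT14, had 0 counts in DMSO and 2, 1 and 1 in doxorubicin. KRT6A, KRT6B and KRT6C, the partners of KRT16 and KRT17 in wounded skin, had 0 counts in DMSO and 4, 2 and 1 counts over the doxorubicin libraries. KRT16 itself was below the filter, with 1, 4 and 2 counts in DMSO and 7, 10 and 12 in doxorubicin, a ratio of 4.32 for the summed counts scaled to library totals (exact 95% interval 1.85 to 11.7, counting error only). KRT6A, KRT6B and KRT6C share 32.1% to 47.1% of their 50-base words with other genes, chiefly with each other, so their few counts cannot be placed firmly. For KRT14 that share is 16.8%, for KRT16 16.5% and for KRT17 9.0%.

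Among the suprabasal keratins of the epidermis, KRT9 and KRT10 differed. KRT9 (chr17:41565841-41572058), a type I keratin of palm and sole skin, had 0, 1 and 4 counts in DMSO and 25, 35 and 29 in doxorubicin. It was nearly silent in DMSO and present in every doxorubicin library, a rise of 16.8-fold in the fit (log2 fold change 4.07 ± 0.54 SE, adjusted p = 5.1e-06, edgeR). The ratio of its summed counts, 89 against 5, was 18.6 with a counting interval of 7.66 to 58.6. DMSO replicate 3 holds 4 of those 5 counts, and without it the fitted log2 fold change of KRT9 was 5.60, or 48.4-fold. KRT10 (chr17:40818117-40822595), the type I keratin of the layers above the basal layer, was at 39.96, 41.1 and 45.8 CPM in DMSO and 37.6, 33.2 and 42.1 CPM in doxorubicin. The groups overlapped and KRT10 was not called (log2 fold change -0.17 ± 0.09 SE, adjusted p = 0.12, edgeR). Without doxorubicin replicate 3 it was called lower, with a log2 fold change of -0.24 and an adjusted p of 0.046. KRT1, the type II partner of KRT10, had 1 count in DMSO and 1 in doxorubicin, and KRT2 had 0 and 3.

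Hair keratins form the largest group, with 17 genes, of which 4 passed the filter. KRT34 (chr17:41377650-41382403), a type I hair keratin, was at 18.2, 33.6 and 31.0 CPM in DMSO and 43.9, 50.02 and 48.7 CPM in doxorubicin. The first DMSO library was low, and the groups did not overlap. KRT34 rose 1.72-fold (log2 fold change 0.78 ± 0.22 SE, adjusted p = 0.020, edgeR). That call was lost without doxorubicin replicate 1, 2 or 3, with adjusted p of 0.059, 0.069 and 0.054. Its neighbour KRT33B was at 20, 23 and 17 counts in DMSO and 27, 23 and 31 in doxorubicin and did not pass (log2 fold change 0.45 ± 0.29 SE, adjusted p = 0.18, edgeR). Of the 50-base words of KRT33B, 27.7% occur in other genes, and 18.0% in KRT33A. KRT86, a type II hair keratin, had 2, 7 and 7 counts in DMSO and 13, 12 and 13 in doxorubicin and was called higher (log2 fold change 1.25 ± 0.46 SE, adjusted p = 0.024, edgeR). The call was lost with DESeq2 (adjusted p = 0.16), with no filter (0.056), without DMSO replicate 1 (0.11) and without doxorubicin replicate 1 (0.053) or 3 (0.060). KRT81 lies within the span of the KRT86 gene model, on the opposite strand. It had 12, 16 and 25 counts in DMSO and 12, 16 and 11 in doxorubicin and was not called (log2 fold change -0.42 ± 0.36 SE, adjusted p = 0.33, edgeR). KRT81 and KRT86 share 43.7% and 37.5% of their words with other genes, mostly with each other, so counts can move between them. The KRT86 model also begins inside the span of KRT7, on the same strand, and 8.6% of its exon bases lie in other genes. How reads there were assigned is not given.

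Outside these groups, KRT80 and KRT79 went in opposite directions. KRT80 (chr12:52168996-52192000), a type II keratin, was at 15.6, 14.5 and 15.6 CPM in DMSO and 8.98, 12.2 and 11.6 CPM in doxorubicin. It was the only tested member that fell, 1.39-fold (log2 fold change -0.47 ± 0.12 SE, adjusted p = 0.0030, edgeR). KRT80 kept this call with each library left out in turn, but not when tested against a 2-fold change. KRT79, a type II keratin known from hair follicle openings and sebaceous ducts, had 3, 7 and 5 counts in DMSO and 15, 20 and 21 in doxorubicin. It rose 3.72-fold (log2 fold change 1.90 ± 0.41 SE, adjusted p = 7.0e-04, edgeR).

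**Figure D2:**
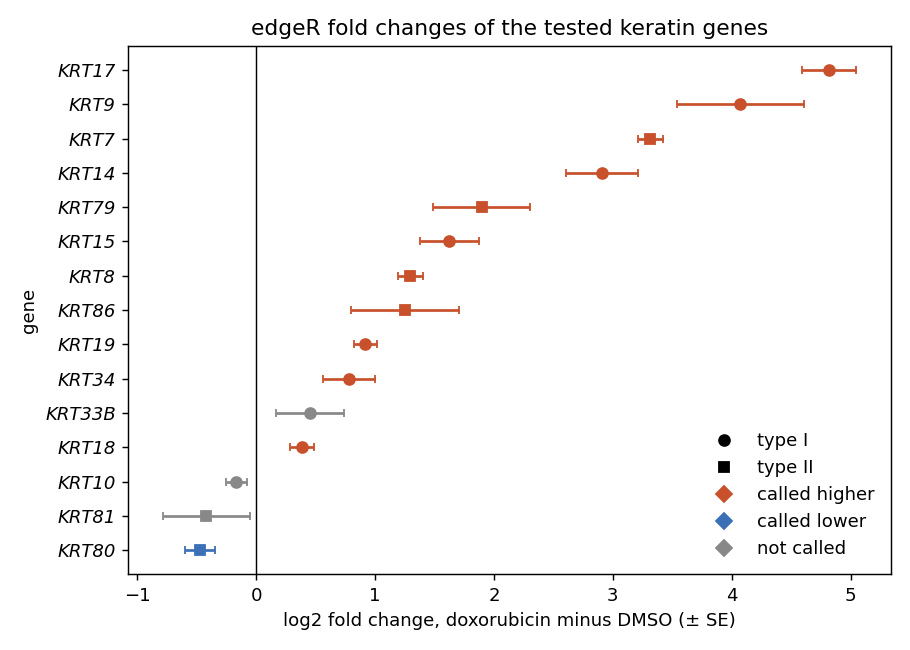
Log2 fold change of doxorubicin minus DMSO with its standard error for the 15 tested keratin genes, circles for type I and squares for type II. KRT17 lies highest at 4.82 and KRT80 lowest at -0.47; KRT33B, KRT10 and KRT81 were not called.

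The remaining 40 members were below the filter and were described by raw counts. In all 6 libraries 6 of them had 0 counts (KRT24, KRT35, KRT73, KRT74, KRT76 and KRT222). Among the other 34, 27 (79.4%) had counts only in doxorubicin libraries, 33 (97.1%) had more counts in doxorubicin and KRT1 had equal counts. Of the 5001 protein-coding genes below the filter with a count, 46.8% had counts only in doxorubicin and 81.5% had more there. The 40 genes summed to 2, 8 and 4 counts in DMSO and 54, 48 and 42 in doxorubicin, and 2, 4 and 3 of them had a count in the DMSO libraries against 22, 20 and 17 in the doxorubicin libraries. Every doxorubicin library thus held more of these transcripts than any DMSO library. Weakly expressed genes at large were also detected more often in doxorubicin. Of the 6887 protein-coding genes below the filter, 25.8% to 27.1% had a count in a DMSO library and 50.6% to 54.8% in a doxorubicin library. The matching shares of the 40 keratin genes were 5.0% to 10.0% and 42.5% to 55.0%. Among genes with 0 counts in DMSO, 27 of 33 keratin genes (81.8%) and 55.4% of 4225 protein-coding genes had a count in doxorubicin. The summed counts scaled to library totals were 10.7 times higher in doxorubicin for the 40 keratin genes and 2.45 times higher for the 6887 genes. These ratios rest on 14 and 18132 counts in DMSO. There 33 of the 40 and 4225 of the 6887 genes had 0 counts, so the sets were not matched for level.

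Only 3 of these 40 genes reached 10 counts. Beside KRT16 they were KRT32, a type I hair keratin, with 0, 1 and 0 counts in DMSO and 3, 8 and 8 in doxorubicin (ratio 19.8, exact 95% interval 3.15 to 823), and KRT3, a corneal type II keratin, with 1, 0 and 0 and then 7, 2 and 0 counts (ratio 9.39, interval 1.30 to 411). Of the 27 genes seen only in doxorubicin, 18 had 1 to 3 counts in total and 9 had 4 to 7. KRT12, a corneal type I keratin, had 7 counts, all in doxorubicin replicate 1, and KRT26, of the hair root sheath, had 4, 0 and 1. KRT38, a type I hair keratin, had 1, 1 and 4. At 0 counts in DMSO, a level of up to 0.0535 CPM (3 counts over the 3 libraries) cannot be told from absence. With no filter on low counts, 49 members were tested by edgeR and 13 (26.5%) were called higher, against 17.5% of the 34828 genes then tested. KRT12, KRT16 and KRT32 joined the called genes there and KRT86 left them.

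**Figure D3:**
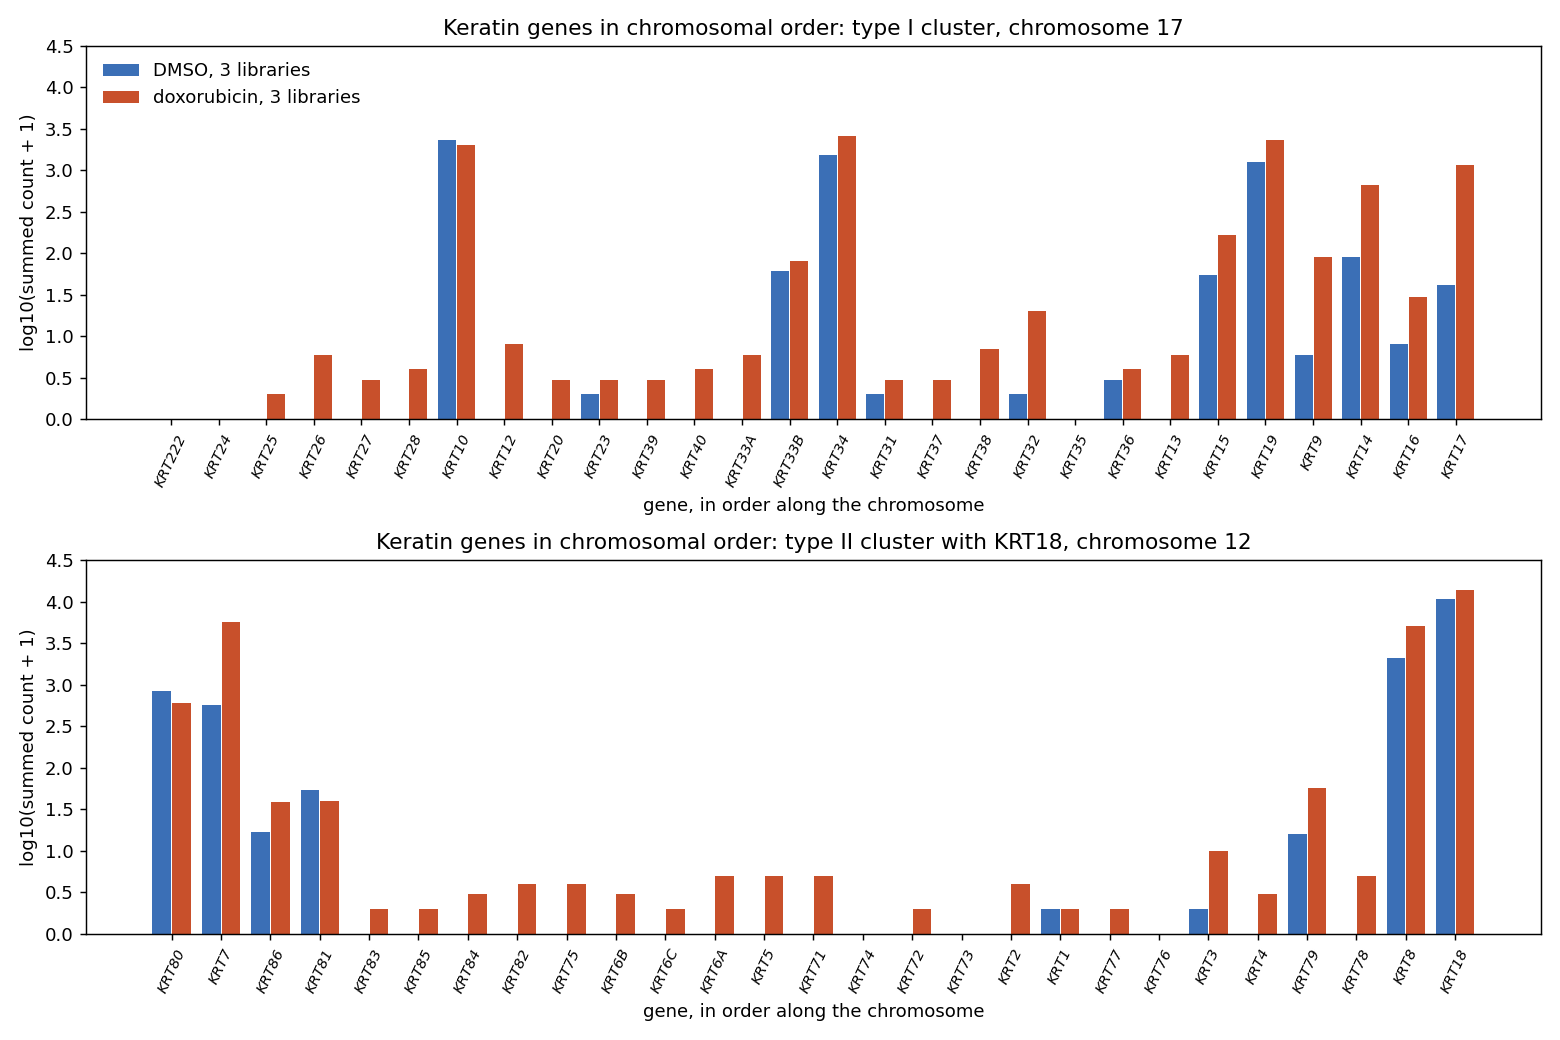
Counts summed over the 3 libraries of each treatment, as log10 of the count plus 1, for all 55 keratin genes in chromosomal order in the chromosome 17 and chromosome 12 clusters. Counts concentrate at KRT10, at KRT33B and KRT34 and from KRT15 to KRT17 on chromosome 17, and at both ends of the chromosome 12 cluster, with low counts in between.

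The members with counts were grouped along the chromosomes. The chromosome 17 cluster (chr17:40654665-41624842) holds 28 members over 970 kb, and 6 neighbouring genes at its end, KRT15, KRT19, KRT9, KRT14, KRT16 and KRT17, all had higher values in every doxorubicin library than in any DMSO library. That was so for 34.8% of all tested genes; of the 6, KRT9 and KRT17 passed the filter only through the doxorubicin libraries and KRT16 did not pass it. The chromosome 12 cluster (chr12:52168996-52952901) holds 27 members over 784 kb. There KRT80 and KRT7 lie side by side at one end and moved in opposite directions, while KRT79, KRT8 and KRT18, all higher in doxorubicin, lie at the other end. The genes between KRT81 and KRT79 had at most 9 summed counts in doxorubicin.

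The levels of type I and type II genes were then compared per kilobase of exon (RPKM, CPM divided by exon length in kilobases), which allows genes to be set side by side. The mean type I sum was 1.48 times and the mean type II sum 3.47 times as high in doxorubicin as in DMSO. Summed type I levels were 111, 110 and 102 RPKM in DMSO and 155, 158 and 163 RPKM in doxorubicin. Summed type II levels were 12.5, 12.5 and 12.1 RPKM in DMSO and 44.9, 41.2 and 42.5 RPKM in doxorubicin. Type I mRNA was in excess in every library, and the excess was smaller in every doxorubicin library. The log2 ratio of type I over type II was 3.12 ± 0.04 in DMSO and 1.89 ± 0.09 in doxorubicin (SD, n = 3), a difference of -1.23. With KRT8 and KRT18 left out the difference was -1.34. With KRT7 left out, an alternative chosen after seeing the data, it was -0.28: the type II sum was then 9.79 ± 0.66 RPKM in DMSO and 17.5 ± 0.27 RPKM in doxorubicin, 1.79 times as high. Most of the difference in the ratio thus rests on KRT7. The members were chosen with earlier results known, so no test is given for these sums.

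**Figure D4:**
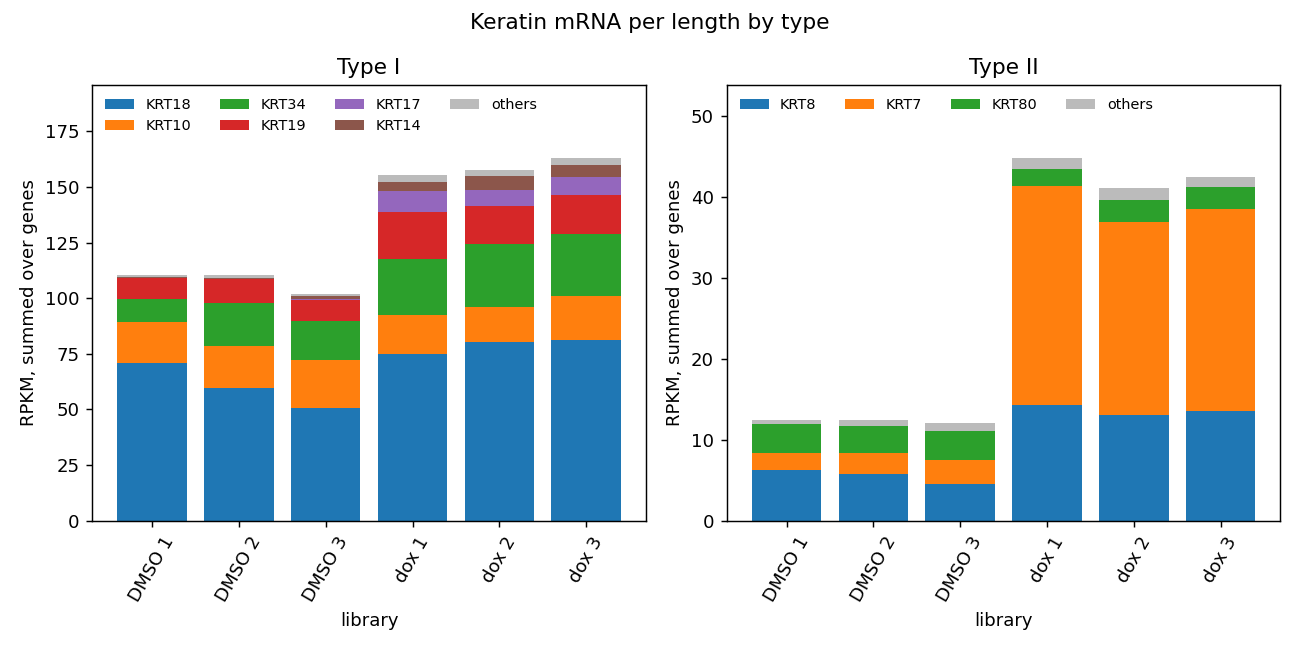
Keratin mRNA per kilobase of exon (RPKM) summed over genes in each library, type I on the left and type II on the right with separate axes. The type I bars reach 102 to 111 RPKM in DMSO and 155 to 163 RPKM in doxorubicin; in the type II bars KRT7 takes 58.0% to 60.3% of the doxorubicin sum.

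The make-up of the type II pool differed between treatments, with KRT7 leading in doxorubicin. KRT7 made up 16.7%, 20.7% and 24.7% of type II mRNA per length in DMSO and 60.3%, 58.0% and 58.9% in doxorubicin. KRT8 went from 50.7%, 46.7% and 37.2% to 31.9%, 31.6% and 31.8%, although its level rose, and KRT80 from 26.8% to 29.8% in DMSO to 4.6% to 6.8% in doxorubicin. In the type I pool KRT18 remained the leading gene, with 49.9% to 64.1% in DMSO and 48.3% to 51.0% in doxorubicin. Of the textbook pairs only KRT18 with KRT8 and KRT19 with KRT7 had counts enough on both sides. The log2 ratio of KRT18 over KRT8 per length was 3.45 ± 0.08 in DMSO and 2.54 ± 0.13 in doxorubicin. That of KRT19 over KRT7 was 2.15, 2.04 and 1.66 in DMSO and -0.37, -0.51 and -0.51 in doxorubicin, so KRT19 was the more abundant mRNA in DMSO and KRT7 in doxorubicin.

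In DMSO the level per length ran from KRT18 (60.4 ± 10.0 RPKM) through KRT10 (19.7 ± 1.44), KRT34 (15.8 ± 4.70), KRT19 (9.75 ± 0.75), KRT8 (5.55 ± 0.95) and KRT80 (3.51 ± 0.14) to KRT7 (2.55 ± 0.45), with all other members under 1 RPKM. KRT10 and KRT34 did not differ beyond their spread. In doxorubicin the order was KRT18 (79.0 ± 3.38 RPKM), KRT34 (27.2 ± 1.83), KRT7 (25.3 ± 1.62), KRT19 (18.4 ± 2.19), KRT10 (17.6 ± 2.07), KRT8 (13.6 ± 0.67), KRT17 (8.34 ± 1.02), KRT14 (5.32 ± 0.92) and KRT80 (2.52 ± 0.40). There KRT34 and KRT7, and KRT19 and KRT10, lay within their spread of each other. KRT7 thus moved from the seventh place to the third.

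The sequence before the start site was looked at for members whose response differed. RefSeq windows of 300 bases (250 before and 50 after a start site, GRCh38.p14) were at hand for 34 of the 55 genes, in 38 windows, among them KRT8, KRT9, KRT34 and KRT79, which rose, and KRT10 and KRT33B, which did not pass. No window was at hand for KRT7, KRT14, KRT15, KRT17, KRT18, KRT19, KRT80 or KRT86. Motif shares over these windows therefore describe mostly genes below the filter and not the genes that changed. Printed here are the 250 bases before the start of 4 of them, all on the minus strand, to set KRT9, nearly silent in DMSO, beside genes active in both treatments. Capitals mark matches on either strand to the motifs searched: a TATA box (TATAAA), an AP-1 site (TGANTCA), an AP-2 site (GCCNNNGGC), a GC box (GGGCGG) and the p53 half-site decamer.
KRT9 (chr17:41572060-41572309): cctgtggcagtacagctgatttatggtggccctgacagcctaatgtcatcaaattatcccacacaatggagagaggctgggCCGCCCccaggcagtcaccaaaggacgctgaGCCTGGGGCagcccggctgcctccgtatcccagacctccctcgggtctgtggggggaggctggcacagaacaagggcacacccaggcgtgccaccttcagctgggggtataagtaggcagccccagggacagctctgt
KRT34 (chr17:41382307-41382556): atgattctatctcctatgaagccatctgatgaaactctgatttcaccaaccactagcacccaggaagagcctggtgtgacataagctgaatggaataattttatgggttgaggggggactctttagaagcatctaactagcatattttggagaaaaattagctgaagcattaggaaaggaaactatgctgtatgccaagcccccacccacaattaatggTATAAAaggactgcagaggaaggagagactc
KRT10 (chr17:40822615-40822864): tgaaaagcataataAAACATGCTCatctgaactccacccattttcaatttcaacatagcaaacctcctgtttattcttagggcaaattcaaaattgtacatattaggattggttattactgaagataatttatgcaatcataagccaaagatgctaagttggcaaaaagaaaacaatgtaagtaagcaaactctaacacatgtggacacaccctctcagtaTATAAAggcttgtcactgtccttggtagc
KRT8 (chr12:52926470-52926719): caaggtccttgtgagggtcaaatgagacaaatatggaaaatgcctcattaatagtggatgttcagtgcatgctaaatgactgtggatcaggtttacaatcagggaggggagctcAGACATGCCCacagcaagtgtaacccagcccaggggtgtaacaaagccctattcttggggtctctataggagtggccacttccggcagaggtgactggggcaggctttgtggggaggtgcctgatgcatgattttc

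KRT34 and KRT10 carry TATAAA beginning 31 and 29 bases before the start. KRT9 has a GC box beginning 169 and an AP-2 match beginning 138 bases before it. TATAAA was searched letter for letter, so near matches, such as tataag in the KRT9 sequence, were not counted. KRT10 and KRT8 each hold 1 p53 half-site decamer, beginning 236 and 136 bases before the start. The KRT8 window lies inside the gene model of the count table, which begins 23485 bases upstream. Counts per gene do not show which start was used, so this window may not belong to the KRT8 mRNA that was counted. The KRT79 window held no match to the 5 motifs as written. TATAAA was found in 21 of the 38 keratin windows (55.3%) and in 11.5% of the 35116 windows in the whole table. The p53 half-site decamer was found in 8 (21.1%) against 6.6%, those of KRT2, KRT5, KRT8, KRT10, KRT20, KRT24, KRT25 and KRT76. Of these genes only KRT8 was called higher, KRT10 was not called, and the others were below the filter. The AP-2 site was found in 5 (13.2%) against 23.2%, and the GC box in 6 (15.8%) against 45.0%. The AP-1 site was found in 0 of the 38 windows, against 7.7%. A match is a description of the letters and not a binding site.

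Keratin pseudogenes and an antisense gene were examined because their reads can be confused with those of the genes. The table lists 150 keratin pseudogenes, which summed to 726 counts in DMSO and 1212 in doxorubicin, against 19712 and 34559 for the 55 genes. KRT8P45, a processed copy of KRT8, had 0 counts in DMSO and 47, 49 and 50 in doxorubicin, which is at least 50.8-fold higher if DMSO is set to the floor of 3 counts in the group. It overlaps no other listed gene. KRT16P6 had 0, 2 and 2 counts in DMSO and 14, 21 and 19 in doxorubicin. KRT8P33 and KRT8P46, which lie within CEP120 and MANBA, also rose, 2.50-fold and 3.54-fold, and KRT8P12 did not pass (520 and 499 counts). By comparison 16.1% of the 50-base words of KRT8 and 24.5% of those of KRT18 occur in other genes, which are not all pseudogenes. The largest share of KRT8 words lay in KRT18 (5.9%), and that of KRT18 words in KRT8 (12.7%).

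Genes that anchor keratin filaments were counted next. Of 20 genes for desmosomes, hemidesmosomes and plakins, 13 were tested, and 9 rose, 3 fell and 1 did not pass, where 32.7% of all tested genes rose and 32.0% fell. DSC3, COL17A1 and EPPK1 passed the filter only through the doxorubicin libraries, which favours a call of higher. Of the other 10, 6 rose and 3 fell. The largest changes among members with a mean log2 CPM of 1 or more were in DSC3, a desmosomal cadherin with 0 counts in DMSO and 234, 163 and 156 in doxorubicin, COL17A1, a hemidesmosomal collagen that rose 22.1-fold from 0.524 to 11.8 CPM, and EPPK1, a plakin that binds keratin filaments and rose 13.8-fold from 0.646 to 9.09 CPM. Of the other 15 intermediate filament genes, 13 were tested, and 7 rose and 4 fell. The neurofilament genes NEFH, NEFL and NEFM passed only through the doxorubicin libraries; of the other 10, 4 rose and 4 fell, shares near those of all tested genes (32.7% and 32.0%). By the same limit on level, the largest changes were in NEFL, a neurofilament gene with 0, 1 and 0 counts in DMSO and 253, 168 and 152 in doxorubicin, in LMNB1, a nuclear lamin that fell 5.03-fold from 265 to 52.6 CPM, and in SYNM, synemin, which rose 3.62-fold from 18.8 to 68.3 CPM. VIM and DES, the vimentin and desmin genes, were added after their values were seen. VIM fell from 1855 to 1213 CPM and DES from 2.16 to 0.645 CPM. All keratin genes together summed to 357 ± 25.8 CPM in DMSO and 635 ± 10.3 CPM in doxorubicin, below VIM alone in both treatments.

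Of 15 transcription factors known to act on keratin genes, 8 were tested, and 6 rose and 2 did not pass (GRHL1 and TFAP2A), where 32.7% of all tested genes rose. GRHL3 passed the filter only through the doxorubicin libraries; of the other 7, 5 rose. The 7 untested factors had few counts, among them ELF3 with 5, 2 and 2 in DMSO and 1, 1 and 0 in doxorubicin. Under that limit the largest changes were in GRHL3, an epidermal factor that rose 20.1-fold from 0.202 to 4.14 CPM, KLF4, an epidermal barrier factor that rose 6.26-fold from 8.02 to 50.3 CPM, and SOX9, a hair follicle factor that rose 3.46-fold from 10.99 to 38.1 CPM. TP63, the regulator of basal keratinocytes, had 0, 0 and 1 counts in DMSO and 16, 17 and 8 in doxorubicin.

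Epithelial markers were measured beside these results, since keratins are used to recognise epithelial cells. Of 12 epithelial markers, 4 were tested, and CDH1, CLDN4 and CDH3 rose, where 32.7% of all tested genes did. CLDN7, which passed the filter only through the doxorubicin libraries, was not called. The list summed to 5.25 to 6.59 CPM in DMSO and 29.1 to 34.0 CPM in doxorubicin, of which CDH3 alone made up 1.35 and 23.0 CPM on average. EPCAM had 11, 14 and 5 counts in DMSO and 8, 8 and 7 in doxorubicin, and RAB25 had 0 counts in DMSO and 2, 1 and 0 in doxorubicin. ESRP1, an epithelial splicing regulator, had 0, 0 and 1 counts in DMSO and 5, 7 and 6 in doxorubicin. GRHL2, an epithelial transcription factor, had 1, 0 and 0 and then 9, 4 and 4 counts, and ST14, an epithelial serine protease, 2, 3 and 0 and then 11, 5 and 13. These low markers thus did not all behave alike: EPCAM, CLDN3, ESRP2 and ELF3 had lower mean levels in doxorubicin, and ESRP1, GRHL2, ST14 and RAB25 higher ones. Of 13 genes of keratinocyte differentiation, 3 were tested and called higher (FLG, TGM1 and CNFN). FLG and CNFN passed the filter only through the doxorubicin libraries, which favours a call of higher. IVL, KRTDAP, LORICRIN, SPRR1A and SPRR1B had 0 counts in all libraries. The list summed to 3.02 to 3.70 CPM in DMSO and 12.9 to 14.8 CPM in doxorubicin. The part of these markers in the keratin results was not tested.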

How the data were processed

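Poly(A) RNA of 6 AC16 samples was sequenced as unstranded libraries, per the labels' protocols. The authors deposited raw counts per gene for each library, with summed exon length, in the column layout of featureCounts. The build is GRCh38 (hg38) and the tools are featureCounts, Subread, SAMtools and STAR, per the submitters' processing notes. Versions, and the handling of reads in several genes, are not given in the sources used here. Symbols for 57717 of 58299 gene IDs came from a table of gene names; gene types came from GENCODE release 29, which lists 58179. No column belonged to other samples (0).

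The main test was edgeR 4.0.16 (R 4.3.3) on all genes. Low genes were removed by filterByExpr (minimum total 15, minimum count 10) and libraries scaled by TMM. Doxorubicin was tested against DMSO with robust quasi-likelihood F tests, two-sided and with no covariate. Adjustment was by Benjamini-Hochberg over 15358 genes, with 0.05 as threshold for a call. An approximate standard error (SE) was taken as the log2 fold change over the root of F. CPM are TMM-scaled, and RPKM are these divided by exon length. Raw-count ratios carry exact conditional binomial (Clopper-Pearson) 95% intervals. The procedure was tested on simulated data. Chi-square per degree of freedom between libraries of a group was 2.82 to 9.39, so each counted as 1 replicate.

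The share of 50-base words was computed over GENCODE transcripts on either strand, and genes named there may include pseudogenes. The members, the lists and the named genes (every member with a count, and the 3 largest called changes of each partner list at a mean log2 CPM of 1 or more) were chosen with earlier results of these data known. The alternatives tried were DESeq2 1.42.0, RLE, upper-quartile and library-total scaling, other filters, a replicate block, leaving out each library, glmTreat against 2-fold, and, for type sums and pairs, no division by length. Leaving KRT7 out of the type II sum was added after seeing the data.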

Additional observations from a re-analysis of the deposited data

How the results depend on the processing

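Every tested keratin gene kept its direction under each alternative that could test it. Across 15 genes and with glmTreat not counted, 183 of 192 values kept their side of the threshold. The exceptions were KRT34, KRT86 and KRT10, given with those genes. Leaving out 1 library moved the fold change by over 1.5 times for KRT9 and KRT14 alone, both without DMSO replicate 3 (given there). Leaving out each library gave 9301 to 9829 genes called, 9 to 11 keratin genes higher and 1 to 2 lower, where KRT10 joined KRT80 without doxorubicin replicate 3. Tested against a 2-fold change with glmTreat, 1894 genes were called (9934 in the edgeR test against no change), 1464 higher and 430 lower. The share called higher was 9.53% of all tested genes. Of the keratin genes 7 were higher and 0 lower (0 also at an unadjusted p under 0.05). Among the 7 were KRT9, KRT17 and KRT79, which passed the filter only through the doxorubicin libraries. KRT18, KRT19, KRT34, KRT80 and KRT86 lost their calls there. DESeq2 called 11 keratin genes higher and 1 lower, with KRT32 in place of KRT86, where 22.5% of the 22454 genes it tested were higher. The type I over type II difference was -1.16 without division by length and -1.34 without KRT8 and KRT18, and -0.28 without KRT7 (chosen after seeing the data), with a range of -1.26 to -1.18 when each library was left out.

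With the replicate number as a block, 9920 genes were called, and 11 keratin genes were higher and 1 lower, so the block changed no keratin call. Under the block the adjusted p was 7.9e-05 for KRT34 and 0.034 for KRT86 (edgeR), against 0.020 and 0.024 without it. The deviations of same-numbered libraries correlated at 0.052, -0.023 and 0.027, and not every library correlated best with its own number. Such small correlations cannot decide whether the numbers pair the samples. With no filter the median log2 fold change of all genes was 0.38. Genes with few counts in DMSO, KRT9 among them, are limited by depth: 3 counts over the DMSO group are 0.0535 CPM.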
